A study of Mus musculus with 16 samples.

Results

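The 6 whole retinas injected at 18 months of age are described here by a split that crosses the injected substance. The split was taken from a readout: the 3 libraries in which Irf9 exceeded 100 CPM (the count times 1e6 over the library total) were set against the 3 below it. Irf9 stood at 61.0 CPM in vehicle 1, 57.7 in vehicle 2, 233 in vehicle 3, 21.6 in supplemented 1, 204 in supplemented 2 and 156 in supplemented 3. The high-Irf9 libraries are therefore vehicle 3, supplemented 2 and supplemented 3, and the low-Irf9 libraries are vehicle 1, vehicle 2 and supplemented 1. The library just inside the threshold had 156 CPM and the one just outside had 61.0 CPM. These 6 libraries are part of a series of 16. The members were chosen by expression in the same libraries, so no gene of this split was tested, and the values below are a description of 6 libraries.

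All 6 retinas came from wildtype mice and were taken on day 5 after a substance was put into the vitreous. Supplemented retinas received 0.36 nmol of 24:5, a polyunsaturated fatty acid downstream of the elongase ELOVL2, and vehicle retinas the vehicle alone, given to the fellow eye (3 libraries each). The labels do not tie retinas to animals, so which libraries share an animal is not known. The 10 uninjected retinas of the series were wildtype at 12 months (3), Elovl2 mutant at 12 months (3) and wildtype at 18 months (4). The mutant allele is written C234W in the design text and C34W in the genotype labels. The high-Irf9 set holds 1 vehicle and 2 supplemented libraries and the low-Irf9 set the reverse, so a difference between the sets also carries part of any difference between 24:5 and vehicle. For the label markers and most lists, values are therefore also given within vehicle (vehicle 3 against vehicle 1 and 2) and within 24:5 (supplemented 2 and 3 against supplemented 1).

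IRF9 is a DNA-binding factor of the interferon response that works with STAT2 to drive interferon-stimulated genes, and its own gene is induced by cytokines. When the retina is injured, cytokines of the interleukin-6 family such as LIF signal through the shared receptor subunit gp130 (Il6st) and STAT3 in Müller glia, which become reactive, while SOCS proteins and CISH damp the signal. Injured ganglion cells switch on a regeneration programme that includes Atf3 and Sprr1a. Interleukin-33 is a nuclear alarmin held by Müller glia in the mouse retina. NR2E3 is the nuclear receptor that keeps rod photoreceptors from expressing cone genes.

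Library totals lay between 22100000 and 25600000 counts, with 23442 to 24530 genes counted at least once. Levels below are CPM after TMM scaling (edgeR's correction for composition), and a difference is the mean log2(CPM + 0.5) of the high-Irf9 libraries minus that of the low-Irf9 libraries. The first principal component of the 6 libraries held 48.8% of the variance and the second 24.0%. On the first, the low-Irf9 libraries scored -29.5, -23.8 and -19.6 and the high-Irf9 libraries 19.8, 20.3 and 32.8. With lens and structural RNA genes left out it held 47.4%.

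Of 17465 genes that passed the filter on low counts (Irf9 left out), 161 (0.922%) were higher in the high-Irf9 libraries, meaning that the 3 libraries all lay above the other 3 with at least a 2-fold difference, and 195 (1.12%) were lower. Without the 2-fold limit, 2829 genes (16.2%) lay above and 2470 (14.1%) below, against 2024 (11.6%) whose supplemented and vehicle libraries did not overlap and 182 (1.04%) that also differed 2-fold between those groups. The median difference over all genes was -0.02. Leaving out supplemented 1 changed the counts to 102 higher and 417 lower, and leaving out vehicle 3 gave 338 lower.

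Of the 6 marker genes of the label, 5 were higher in the high-Irf9 libraries, and the sixth, Nr2e3, lay below without reaching 2-fold. Sprr1a (chromosome 3, 92483952-92485895), a small proline-rich protein of regenerating axons, had 0.48, 0.59 and 0.12 CPM in vehicle 1, vehicle 2 and supplemented 1, and 7.63, 6.47 and 4.18 CPM in vehicle 3, supplemented 2 and supplemented 3. The log2 difference was 2.88 (2.98 within vehicle, 3.20 within 24:5), and the sets were far apart although the gene stayed low. Il33 (chromosome 19, 29925114-29960718) had 130, 120 and 93.5 CPM in the low-Irf9 libraries, in the same order, and 476, 449 and 496 CPM in the high-Irf9 libraries, a log2 difference of 2.06 (1.93 within vehicle, 2.33 within 24:5). Its 3 high libraries lay within a narrow range whichever substance had been injected. Cish (chromosome 9, 107296026-107302784), a STAT5-induced inhibitor of cytokine receptors, had 3.45, 4.43 and 3.50 CPM against 19.3, 13.3 and 17.9 CPM, a log2 difference of 2.17 within vehicle and 1.99 within 24:5. Atf3 (chromosome 1, 191170296-191218039), a stress-induced transcription factor of the AP-1 and CREB class, had 27.8, 27.5 and 17.9 CPM against 81.1, 58.5 and 62.1 CPM, a log2 difference of 1.46 (1.54 within vehicle, 1.72 within 24:5). In each of these 4 genes vehicle 3 lay with the supplemented libraries of its set and apart from vehicle 1 and vehicle 2.

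Egr2, an immediate early zinc finger factor, was less even. It had 1.44, 1.46 and 0.40 CPM in the low-Irf9 libraries and 12.9, 3.81 and 2.33 CPM in the high-Irf9 libraries (chromosome 10, 67535475-67542188). Vehicle 3 alone was several times above the other high libraries, and the log2 difference of the sets was 1.86 (2.78 within vehicle, 1.96 within 24:5). Nr2e3 (chromosome 9, 59942771-59960659) had 567, 603 and 756 CPM in the low-Irf9 libraries against 232, 390 and 405 CPM, a log2 difference of -0.94 (-1.33 within vehicle, -0.93 within 24:5). Its lowest level was again in vehicle 3.

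**Figure D1:**
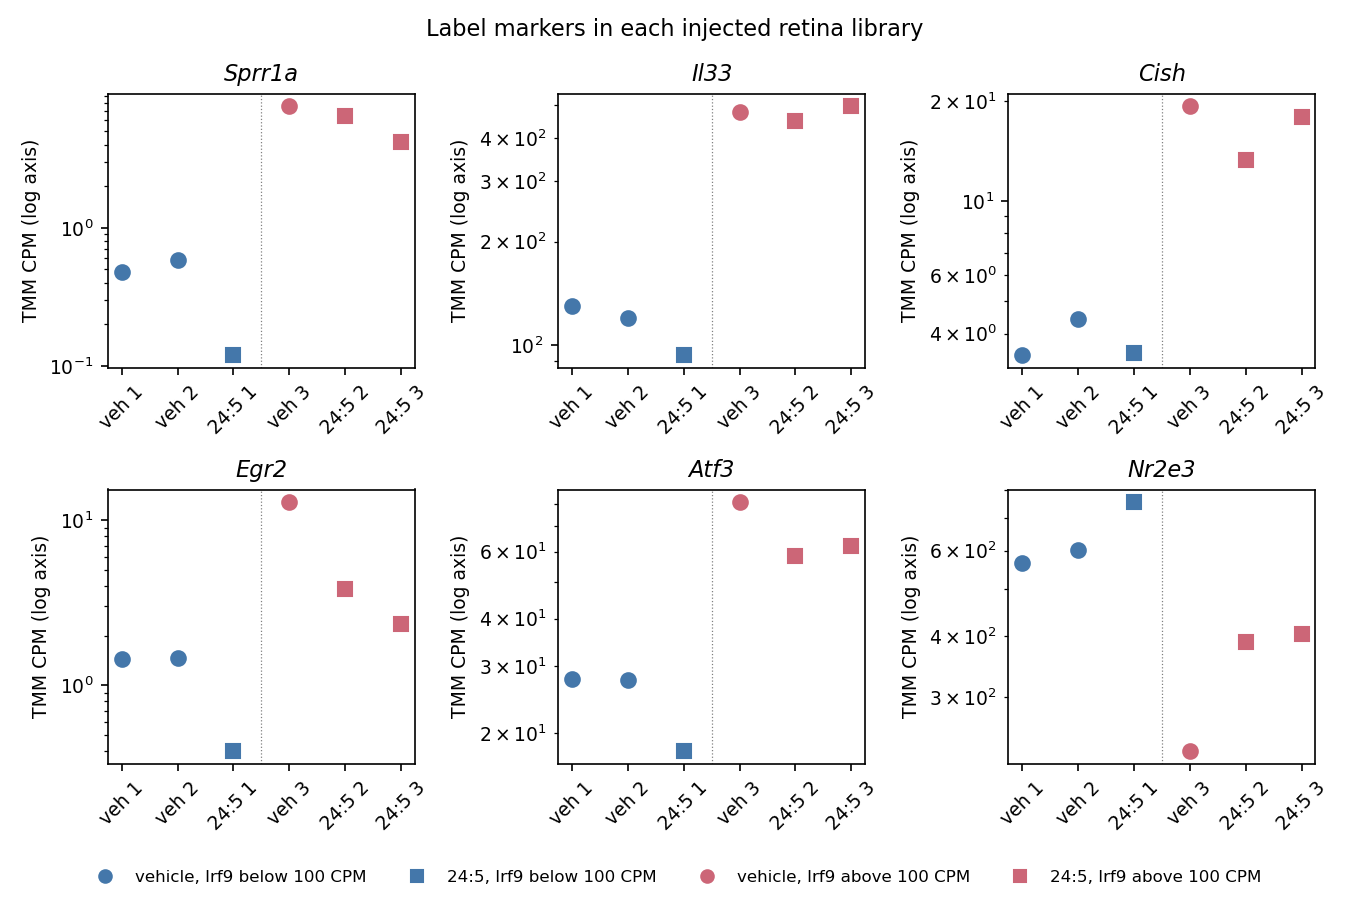
Level of the 6 label markers (TMM CPM, log axis) in each injected library, with low-Irf9 libraries left of the dotted line and high-Irf9 libraries right of it; circles are vehicle and squares 24:5. Sprr1a, Il33, Cish, Egr2 and Atf3 lie higher on the right and Nr2e3 lower, with vehicle 3 highest for Egr2 (12.9 CPM) and lowest for Nr2e3 (232 CPM).

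Promoter stretches of higher genes are shown because AP-1 factors (Fos and Jun family) and STAT factors were themselves among the higher genes. The 250 bases before each gene's start were taken from RefSeq (GRCm38.p6) and searched on both strands for the AP-1 letters TGANTCA and the STAT letters TTCNNNGAA. Capitals mark the matches. Of 18 higher or marker genes with a window, 6 held a match and 12 held none, among the latter Atf3, Il33, Egr2, Nr2e3, Flnc and Cd44. Sprr1a and Srxn1 hold AP-1 matches, Socs3 and Tmbim1 a STAT match, and 2 of 5 Sphk1 windows, which overlap each other, hold both letters side by side (1 is shown). The windows are chr3:92485882-92486131 (minus strand), chr2:152105274-152105523 (plus), chr11:117969367-117969616 (minus), chr1:74304337-74304586 (minus) and chr11:116531587-116531836 (plus).
Sprr1a: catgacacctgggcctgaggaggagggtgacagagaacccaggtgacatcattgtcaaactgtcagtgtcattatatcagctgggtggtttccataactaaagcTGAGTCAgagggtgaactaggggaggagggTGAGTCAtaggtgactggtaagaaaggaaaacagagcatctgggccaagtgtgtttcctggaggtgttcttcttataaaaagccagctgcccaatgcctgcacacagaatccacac
Srxn1: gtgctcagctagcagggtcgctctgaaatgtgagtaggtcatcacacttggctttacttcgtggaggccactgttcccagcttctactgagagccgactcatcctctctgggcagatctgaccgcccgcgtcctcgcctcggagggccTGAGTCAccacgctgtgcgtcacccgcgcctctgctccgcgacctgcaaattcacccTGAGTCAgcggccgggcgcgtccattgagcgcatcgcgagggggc
Socs3: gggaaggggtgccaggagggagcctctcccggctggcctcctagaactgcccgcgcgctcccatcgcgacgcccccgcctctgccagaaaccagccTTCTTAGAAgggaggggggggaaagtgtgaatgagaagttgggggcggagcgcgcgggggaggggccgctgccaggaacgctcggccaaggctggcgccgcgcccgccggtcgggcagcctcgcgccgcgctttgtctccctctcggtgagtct
Tmbim1: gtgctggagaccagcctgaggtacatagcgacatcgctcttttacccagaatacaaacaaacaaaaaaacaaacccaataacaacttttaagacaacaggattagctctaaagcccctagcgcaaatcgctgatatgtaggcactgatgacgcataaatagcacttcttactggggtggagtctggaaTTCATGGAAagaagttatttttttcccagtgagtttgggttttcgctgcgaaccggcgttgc
Sphk1: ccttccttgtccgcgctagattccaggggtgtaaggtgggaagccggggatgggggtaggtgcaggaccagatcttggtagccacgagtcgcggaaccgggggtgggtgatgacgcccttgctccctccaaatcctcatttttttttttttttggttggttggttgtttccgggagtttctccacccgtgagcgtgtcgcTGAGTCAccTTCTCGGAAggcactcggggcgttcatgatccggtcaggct

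Among 11914 measured genes with such a window, 5.61% held the AP-1 letters, against 18 of 118 higher genes (15.3%) and 15 of 141 lower genes (10.6%). The STAT letters were in 7.18% of measured genes, in 24 of 118 higher genes (20.3%) and in 7 of 141 lower genes (4.96%). For the interferon response letters (GAAA, any pair of bases, GAAA) the shares were 3.19%, 8.47% and 6.38%, and for the CRE letters TGACGTCA 2.94%, 2.54% and 0.709%. Over all 32851 promoter windows the shares were 6.75%, 7.02%, 2.98% and 1.55% for AP-1, STAT, interferon response and CRE. A gene with several starts counted once if any window held the letters. Such a match is a description of letters. In Cish no match lay before the start, but 2 STAT matches lay at its first bases, 1 to 9 and 12 to 20, in the stretch gcccagttTTCCTGGAAagTTCTTGGAAat on chromosome 9.

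The 12 higher genes with the widest distance between the nearest libraries of the sets were Flnc, Adam12, Srxn1, Prss23, Il33, Tmbim1, Tubb6, Cish, Cd44, Hkdc1, Sphk1 and Lad1. Flnc, the actin cross-linker filamin C, had 20.4, 33.0 and 3.22 CPM in vehicle 1, vehicle 2 and supplemented 1 and 283, 217 and 319 CPM in vehicle 3, supplemented 2 and supplemented 3. Its log2 difference of 4.30 was the largest of all measured genes. Srxn1, the sulfiredoxin that repairs oxidised peroxiredoxins, had 94.3, 93.6 and 82.4 CPM against 418, 343 and 741 CPM (log2 difference 2.39). Cd44, the hyaluronan receptor found on reactive Müller glia, had 95.2, 104 and 22.9 CPM against 299, 272 and 330 CPM (2.28). Tubb6, a beta-tubulin, had 8.94, 6.61 and 1.55 CPM against 28.1, 30.5 and 37.0 CPM (2.64). In Flnc, Cd44 and Tubb6 the low-Irf9 libraries were themselves uneven, with supplemented 1 several times below both vehicle libraries. Adam12, a membrane metalloprotease, had 1.79, 1.51 and 1.23 CPM against 11.5, 11.4 and 8.06 CPM (2.42). Sphk1, the kinase that makes sphingosine-1-phosphate, had 6.24, 5.61 and 2.86 CPM against 22.1, 16.8 and 27.3 CPM (2.10). The other 4 that are not label markers, Prss23, Tmbim1, Hkdc1 and Lad1, had log2 differences between 1.86 and 2.30.

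Genes of the cytokine and STAT3 pathway had mostly positive differences. Of 17 measured members of 21 listed, 16 were positive, 7 lay above and 0 below, 5 of them at least 2-fold. Over all genes 16.2% lay above, 14.1% below and 0.922% were at least 2-fold higher. The list had a median log2 difference of 0.79 (0.63 within vehicle, 1.14 within 24:5). Among ligands, Clcf1, a cytokine of the CNTF receptor, had 1.79, 3.01 and 1.27 CPM against 5.64, 4.27 and 13.4 CPM (log2 difference 1.61). Lif overlapped, since vehicle 2 had 8.99 CPM and supplemented 2 had 4.53 CPM. Among receptors, Il6st had 275, 275 and 172 CPM against 539, 509 and 510 CPM (1.14), and Osmr, the oncostatin M receptor subunit, 62.1, 76.5 and 33.4 CPM against 136, 127 and 206 CPM (1.49). The ciliary neurotrophic factor receptor Cntfr overlapped, with a difference of 0.07. Stat3 had 211, 201 and 103 CPM against 362, 369 and 406 CPM (1.21), while Stat5a and Stat5b overlapped.

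Feedback inhibitors of the same receptors were also on the high side, 5 of 8 above and 0 below, against 16.2% and 14.1% of all genes. Their median was 0.46 (0.46 within vehicle, 0.47 within 24:5). Socs3, the inhibitor that binds gp130, had 27.8, 37.5 and 4.97 CPM in the low-Irf9 libraries against 108, 68.2 and 43.4 CPM (log2 difference 1.93). Its sets were separated by little, since vehicle 2 with 37.5 CPM was close to supplemented 3 with 43.4 CPM. Socs2 had 7.85, 9.79 and 8.31 CPM against 21.4, 19.2 and 21.9 CPM (1.22), with even levels in each set. Socs4, Socs5 and Socs6 overlapped.

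Of 18 immediate early genes, 12 lay above and 1 below (Klf4), against 16.2% and 14.1% of all genes. The median log2 difference was 0.61 (0.63 within vehicle, 0.83 within 24:5). Junb had 15.4, 18.5 and 6.72 CPM against 77.3, 49.1 and 42.4 CPM (2.08), and Fos 20.7, 26.1 and 13.7 CPM against 40.9, 47.3 and 49.7 CPM (1.21). Fosl1 was low and highest in supplemented 3, with 0.22, 0.92 and 0.12 CPM against 2.22, 2.62 and 12.1 CPM (2.47). The AP-1 subunit Jun and the zinc finger factor Egr1 overlapped. In the axon injury list, 8 of 20 genes lay above and 1 below, with a median of 0.40 (0.30 within vehicle, 0.77 within 24:5). Beside Sprr1a, Atf3 and Tubb6, Tnfrsf12a, the receptor of the cytokine TWEAK, had 12.0, 11.7 and 7.87 CPM against 30.8, 25.8 and 47.7 CPM (1.65). Gap43, a growth cone protein, lay above by 0.33, and Sox11, Gal and Klf6 overlapped.

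Genes of reactive gliosis gave a mixed picture. Of 22 genes, 6 lay above, all at least 2-fold, and 1 lay below. Over all genes 16.2% lay above, 14.1% below and 0.922% were at least 2-fold higher. The list had a median log2 difference of 0.62 (0.52 within vehicle, 2.04 within 24:5). Nes, the intermediate filament nestin, had 34.4, 20.8 and 18.8 CPM against 97.1, 61.9 and 96.1 CPM (1.79), and Tgm1, a transglutaminase, 4.23, 4.52 and 0.80 CPM against 24.98, 8.89 and 9.29 CPM (2.08). The classic marker Gfap overlapped, with 119, 103 and 49.9 CPM against 160, 142 and 115 CPM. Lcn2, the acute-phase lipocalin, had 229, 156 and 15.4 CPM in the low-Irf9 libraries against 140, 126 and 39.7 CPM in the high-Irf9 libraries. Its 2 highest libraries were thus vehicle 1 and vehicle 2. Serpina3n, Fgf2, Edn2 and Timp1 overlapped as well, in each case with supplemented 1 lowest.

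The label speaks of retinas with and without an injury response. Within the injected table, 15 of 22 gliosis genes overlapped between the sets. This is near the share over all genes (12166 of 17465), so that count is no result about the list. At least 2-fold higher in the high-Irf9 libraries were 6 of the 22, against 0.922% of all genes. Lcn2, 1 member of the list, was highest in vehicle 1. Whether the low-Irf9 set lacks an injury response was not tested. Set beside the uninjected retinas on a length scale, 10 of the 22 exceeded all 10 uninjected retinas in each low-Irf9 library and 17 did so in each high-Irf9 library. Over 17405 genes in both tables the shares were 23.3% and 25%. Gfap stood at 3.39 to 13.8 FPKM in uninjected retinas, at 11.6 to 28.1 CPM per kb in the low-Irf9 libraries and at 26.8 to 38.7 CPM per kb in the high-Irf9 libraries. The sets are therefore called by the rule throughout. The 2 tables were normalised separately and differ in more than injection: the uninjected libraries list the Y-linked genes Ddx3y, Eif2s3y, Kdm5d and Uty at 0 and Xist at 36.7 to 107 FPKM, whereas every injected library had Ddx3y at 96.2 to 107 TMM CPM and at most 3 Xist counts. The structural RNAs Rmrp and Rn7s1 are also listed at 0 in every uninjected library and were among the RNAs that took 8.69% to 13.7% of the injected counts. Rn7sk, another of these RNAs, was not absent there, at 43.5 to 234 FPKM in the uninjected libraries. Injection, sex markers and the share of structural RNA cannot be told apart between the tables, so levels are set side by side with no test.

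On that scale Il33 was at 17.9 to 30.3 FPKM in uninjected retinas, 31.8 to 44.7 CPM per kb in low-Irf9 and 154 to 170 CPM per kb in high-Irf9 libraries. Cd44 was at 1.101 to 2.35 FPKM, 3.32 to 15.5 CPM per kb and 39.8 to 48.0 CPM per kb. For both genes the low-Irf9 libraries lay between uninjected and high-Irf9 retinas. Atf3 was at 7.54 to 13.1 FPKM, and the low-Irf9 libraries, at 8.16 to 13.0 CPM per kb, fell inside that range, while the high-Irf9 libraries reached 27.0 to 38.5 CPM per kb. Nr2e3 was at 205 to 271 FPKM, 167 to 220 CPM per kb and 70.4 to 118 CPM per kb. The 12 higher genes with the widest gap, chosen for being high there, all exceeded every uninjected retina in the high-Irf9 libraries, and 4 did so in the low-Irf9 libraries. Of the 12 lower genes with the widest gap, 9 exceeded every uninjected retina in the high-Irf9 libraries and 12 in the low-Irf9 libraries.

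**Figure D2:**
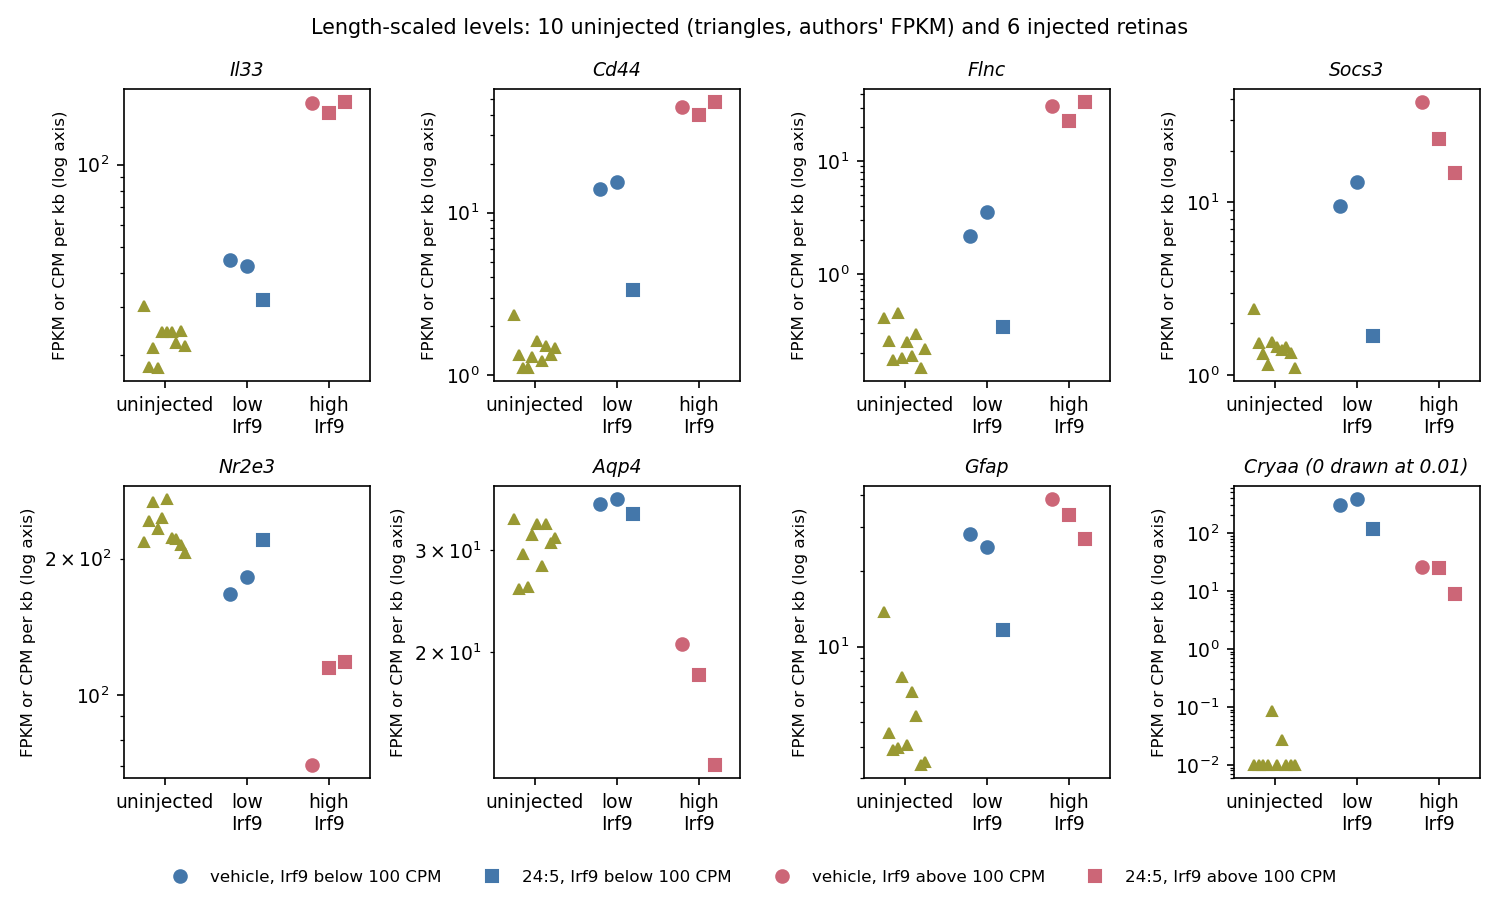
Length-scaled level (log axis) of 8 genes in 10 uninjected retinas (triangles, authors' FPKM) and 6 injected retinas (circles vehicle, squares 24:5, CPM per kb). Il33, Cd44, Flnc and Socs3 are highest in the high-Irf9 libraries, Nr2e3 and Aqp4 lowest there, Gfap sets overlap, and Cryaa is near 0 in uninjected retinas and highest in the low-Irf9 libraries.

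Interferon-stimulated genes mostly overlapped between the sets, and some interferon signalling genes did not. Of 12 signalling genes, 6 lay above and 0 below, with a median of 0.24 (0.24 within vehicle, 0.39 within 24:5). Stat2 had 49.2, 47.8 and 28.1 CPM in the low-Irf9 libraries against 182, 129 and 63.5 CPM (1.49), and Irf8, a factor of myeloid cells, 8.42, 9.79 and 3.62 CPM against 19.4, 13.9 and 13.3 CPM (1.13). The receptor genes Ifnar1, Ifnar2, Ifngr1 and Ifngr2 all overlapped. Of 35 interferon-stimulated genes, 2 lay above and 2 below (the background being 16.2% and 14.1%), with a median of -0.30. This median was -0.07 within vehicle and 0.07 within 24:5, and all 35 genes had a negative fold change for 24:5 against vehicle (median -0.86), so the pooled value gives no direction for the split. The 2 above were the GTPases Igtp (15.2, 14.5 and 5.85 CPM against 48.2, 24.8 and 28.5 CPM) and Irgm1 (21.2, 21.6 and 12.3 CPM against 74.4, 30.6 and 25.4 CPM). Isg15, Ifit3 and Rsad2 overlapped. Usp18 overlapped too but was raised in vehicle 3, with 7.50 and 7.49 CPM in vehicle 1 and 2 against 25.6 CPM. It differed by 1.71 within vehicle and 0.41 within 24:5, and Mx2 by 1.59 and -0.12, beside the list median of -0.07 within vehicle. Of 18 antigen presentation genes 0 lay above and 0 below, while 6 had a positive and 12 a negative pooled difference. The medians were -0.32 within vehicle and -0.00 within 24:5, and all 18 had a negative fold change for 24:5 (median -1.15). Sets can overlap when the supplemented libraries lie lower as a group, so the count of 0 gives no result for the split. Tap1 overlapped in this way but differed by 1.6025 within vehicle and 1.83 within 24:5.

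**Figure D3:**
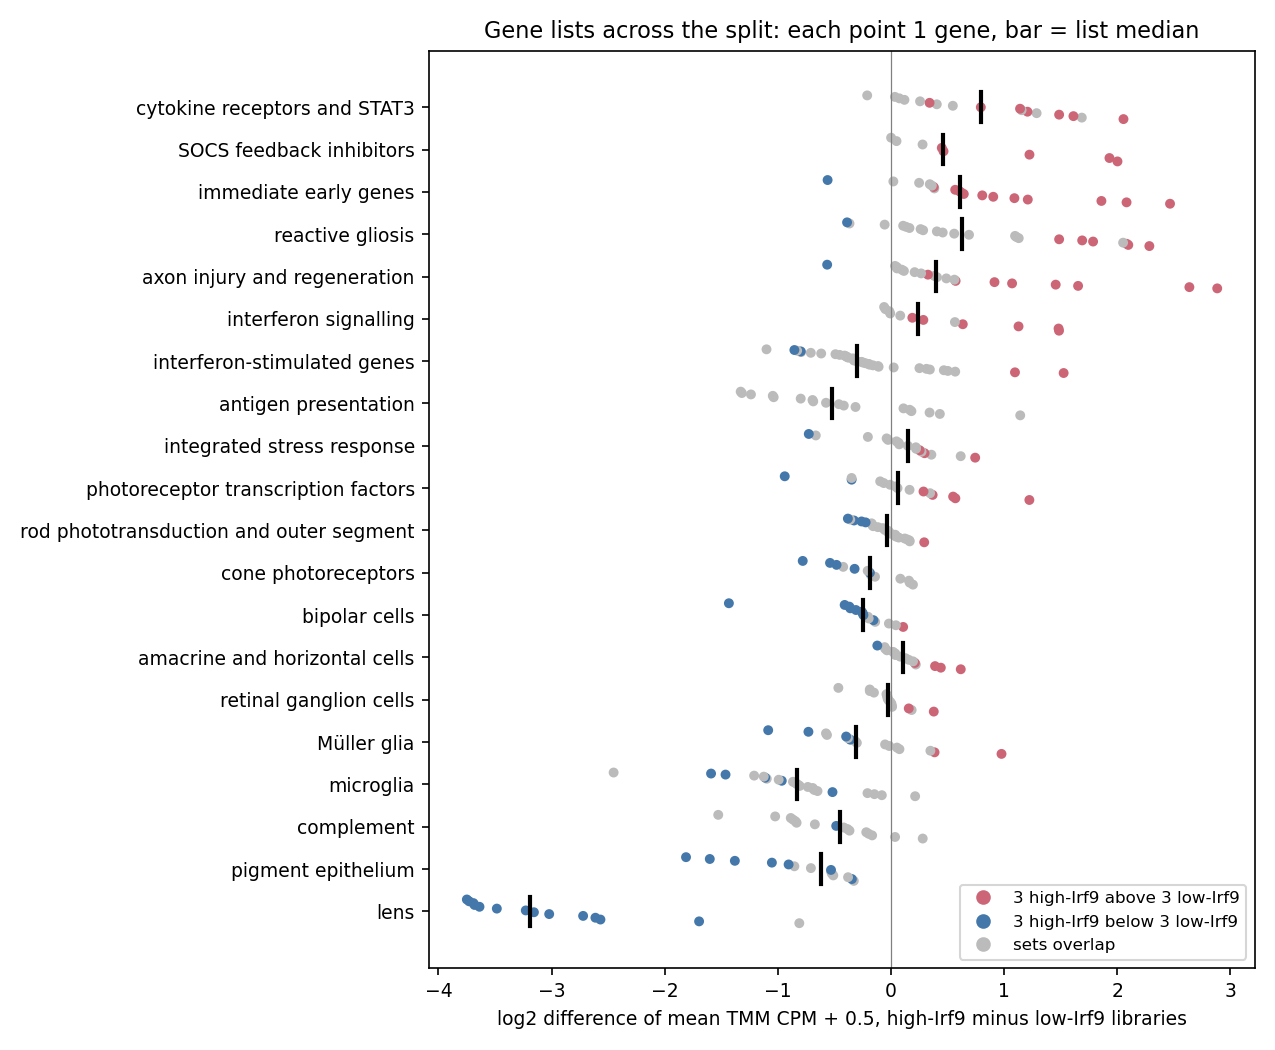
Log2 difference of each gene in 20 lists between high-Irf9 and low-Irf9 libraries; black bars are list medians, red and blue points are genes whose sets do not overlap, grey points overlap. Cytokine, SOCS and immediate early genes lie to the right, lens genes far to the left (median -3.19), and interferon-stimulated genes mostly overlap.

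Retinal cell type genes are given next, where 16.2% of all genes lay above and 14.1% below. In bulk tissue, fewer cells of a type and less RNA per cell cannot be told apart. Among 15 photoreceptor transcription factors, 5 lay above and 2 below (Nr2e3 and Crx), with a median of 0.10 within vehicle and 0.09 within 24:5. Samd7, a polycomb-associated silencer in rods, had 177, 212 and 152 CPM against 317, 435 and 530 CPM (1.22), opposite in direction to Nr2e3. Nrl, the rod-fate factor, overlapped with a difference of -0.06. Of 26 rod genes, 1 lay above and 4 below (median -0.04, with -0.16 within vehicle and -0.09 within 24:5). Of 13 cone genes 0 lay above and 5 below (median -0.19, with -0.16 and -0.22), none of either list at least 2-fold. Among 15 bipolar genes, 9 lay below and 1 above, a share of lower genes over the 14.1% background, and 8 of the 9 differed by 0.41 or less. The bipolar median was -0.24 (-0.13 within vehicle, -0.32 within 24:5). The ninth was Vsx1, a homeobox factor of cone bipolar cells, with 24.8, 31.1 and 32.9 CPM against 11.1, 11.7 and 9.09 CPM (-1.43, with -1.29 within vehicle and -1.62 within 24:5).

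Of 16 Müller glia genes, 2 lay above and 4 below, with a median of -0.31 (-0.21 within vehicle, -0.33 within 24:5). Aqp4, the water channel of Müller endfeet, had 184, 184 and 180 CPM in the low-Irf9 libraries against 103, 93.3 and 65.8 CPM (-1.08, with -0.84 within vehicle and -1.19 within 24:5). The low-Irf9 libraries were nearly equal to each other here. Sox2 went the other way, with 13.5, 16.1 and 14.3 CPM against 33.3, 27.5 and 27.2 CPM (0.98). Glul and Rlbp1, enzymes and carriers of mature Müller glia, overlapped. The potassium channel Kcnj10 overlapped too, with 51.3, 46.7 and 41.1 CPM against 50.8, 28.4 and 20.3 CPM. Of 16 amacrine and horizontal cell genes 4 lay above and 1 below (median 0.11, with 0.12 within vehicle and 0.10 within 24:5), and of 16 ganglion cell genes 2 lay above and 0 below (-0.02, with -0.08 and -0.06), against 16.2% and 14.1% of all genes.

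The lower side of the split was led by lens genes. The 12 lower genes with the widest gap were Cryba1, Crygs, Cryba2, Cryba4, Crybb2, Cryaa, Serpine3, Bfsp2, Crybb1, Bfsp1, Mip and Lgsn. Serpine3 differed from the others in being highest in supplemented 1. It had 27.8, 39.4 and 47.3 CPM in the low-Irf9 libraries against 5.46, 2.07 and 5.85 CPM. Of 14 measured lens genes, 13 were among the 195 lower genes (1.12% of all genes). Cryaa, the lens chaperone alpha-A-crystallin, had 784, 963 and 307 CPM in vehicle 1, vehicle 2 and supplemented 1 against 63.4, 64.2 and 22.6 CPM in vehicle 3, supplemented 2 and supplemented 3 (-3.75, with -3.77 within vehicle and -2.99 within 24:5). Mip, the lens fibre water channel, had 25.3, 29.6 and 5.21 CPM against 0.67, 1.44 and 0.90 CPM (-3.48). The median of the lens list was -3.19 (-3.45 within vehicle, -2.37 within 24:5). The other 7 listed lens genes did not pass the filter on low counts. The summed lens list was 814 to 2259 CPM in the low-Irf9 and 159 to 243 CPM in the high-Irf9 libraries, and Cryaa was listed at 0 to 0.0845 FPKM in uninjected retinas. Lens genes thus moved with the split, and their part in the other differences was not tested.

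Blood and ocular surface lists were also lower in the high-Irf9 libraries by their sums, and pigment epithelium and optic nerve sums overlapped. Pigment epithelium genes summed to 213, 423 and 378 CPM against 124, 216 and 265 CPM, blood genes to 24.1 to 48.7 CPM against 12.7 to 21.2 CPM, and ocular surface genes to 8.06 to 33.9 CPM against 3.99 to 6.54 CPM. Of 14 pigment epithelium genes 7 lay below, 4 of them at least 2-fold, against 14.1% and 1.12% of all genes. Their median was -0.62 (-1.12 within vehicle, -0.56 within 24:5). Structural RNAs such as Rn7sk took 9.70% to 13.7% of the counts in the low-Irf9 and 8.69% to 9.78% in the high-Irf9 libraries. The optic nerve list summed to 72.1 to 81.7 CPM against 66.1 to 73.9 CPM, with Mog and Olig2 at 0 in every library. The part of these lists in the results was not tested.

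Microglia genes had mostly negative differences, in the split and for 24:5. Of 24 measured, 23 were negative, 0 lay above and 5 below, against 16.2% and 14.1% of all genes. The list had a median of -0.83. This median was -0.62 within vehicle and -0.39 within 24:5, and all 24 had a negative fold change for 24:5 against vehicle (median -1.08). Cx3cr1, the fractalkine receptor, had 24.9, 21.7 and 19.1 CPM against 15.7, 10.2 and 2.54 CPM (-1.46, with -0.55 within vehicle and -1.78 within 24:5), and Trem2 13.5, 12.6 and 5.93 CPM against 5.06, 2.67 and 1.96 CPM (-1.59). Lyz2, a myeloid lysozyme, overlapped, with 292, 138 and 37.7 CPM against 49.5, 23.7 and 7.33 CPM. Vehicle 1 and vehicle 2 were the highest libraries for the summed microglia list (1122 and 807 CPM) and supplemented 3 the lowest (254 CPM). Of 16 complement genes 0 lay above and 1 below, with a median of -0.62 within vehicle and 0.07 within 24:5, and 14 had a negative fold change for 24:5. C3 had 171, 106 and 15.8 CPM against 38.0, 21.2 and 14.5 CPM. Among 13 chemokines and cytokines, 4 lay above (Csf1, Cxcl1, Tgfb2 and Cx3cl1) and 3 below (Ccl5, Il18 and Cxcl12), with a median of -0.34 (-0.07 within vehicle, 0.09 within 24:5). Ccl5 had 3.14, 3.14 and 2.62 CPM against 1.46, 1.18 and 0.37 CPM (-1.28), and Csf1 had 10.3, 11.3 and 5.93 CPM against 21.1, 15.3 and 16.1 CPM.

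**Figure D4:**
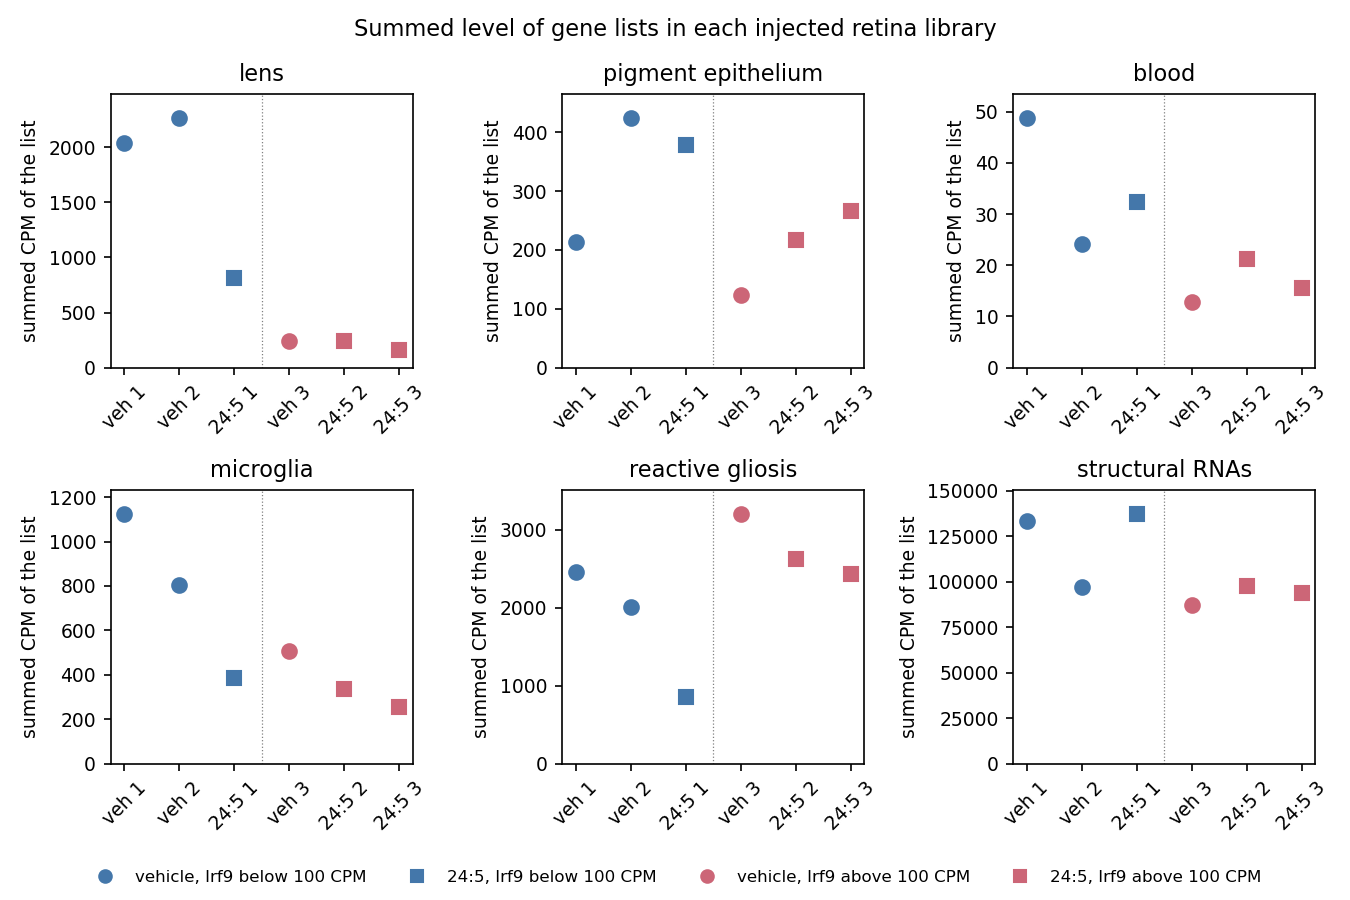
Summed CPM of 6 gene lists in each injected library (y axes start at 0; circles vehicle, squares 24:5). Lens and blood sums are lower in all 3 high-Irf9 libraries, while pigment epithelium, microglia, reactive gliosis and structural RNA sums overlap between the sets.

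Within each injection group part of the genes took the same side, more so among higher than lower genes. The value within vehicle rests on vehicle 3 alone on the high side, and that within 24:5 on supplemented 1 alone on the low side. Of 17465 genes, 164 were at least 2-fold higher in vehicle 3 than in the mean of vehicle 1 and 2. At least 2-fold higher in supplemented 2 and 3 than in supplemented 1 were 363 of the same 17465. The 128 in both lists are 78% of the first and 35.3% of the second. For lower genes the counts were 314 and 249, and the 82 in both are 26.1% and 32.9%. In the first higher list 5 genes, and in the first lower list 2, were at least 2-fold in the opposite direction within 24:5. Cd44 differed by 1.59 within vehicle and 3.68 within 24:5, Flnc by 3.42 and 6.15, and Socs3 by 1.73 and 3.33. Il33, at 1.93 and 2.33, and Sprr1a, at 2.98 and 3.20, were more even.

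**Figure D5:**
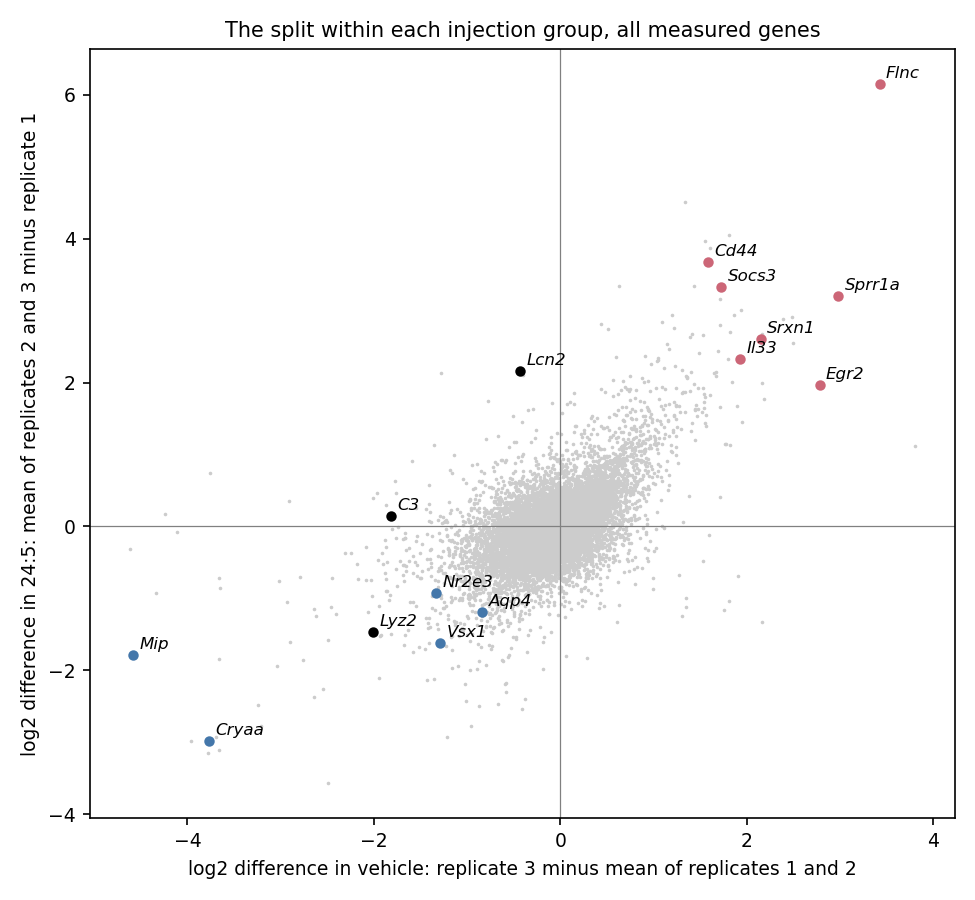
Each point is 1 measured gene, with its log2 difference within vehicle on the x axis and within 24:5 on the y axis; red and blue points are named genes above or below in the high-Irf9 libraries and black points named genes that overlap. Flnc, Sprr1a and Il33 are positive on both axes, Cryaa and Mip negative on both, and Lcn2 is negative within vehicle and positive within 24:5.

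The labelled comparison of 24:5 with vehicle, which the split does not use, was tested over all 17466 genes with edgeR. It called 2 genes (0.0115%) at an adjusted p under 0.05, Rnf213 and Ifit1, with 1154 at an unadjusted p under 0.05. The count rests on the fit: DESeq2 called 246, edgeR with no filter 85, edgeR with a replicate block 88 and edgeR without vehicle 3 called 90. Rnf213, an interferon-induced ubiquitin ligase, had 96.2, 87.0 and 87.1 CPM in the vehicle and 37.9, 43.3 and 38.2 CPM in the supplemented libraries, and it fell by 1.18 on the log2 scale (SE 0.0827, edgeR adjusted p = 0.0117). Ifit1 had 26.3, 25.4 and 25.3 CPM against 12.3, 12.2 and 13.2 CPM and fell by 1.03 (SE 0.0880, edgeR adjusted p = 0.0257). Leaving out any 1 of vehicle 1, vehicle 2, supplemented 2 or supplemented 3 ended both calls (edgeR adjusted p from 0.0538 to 0.338), and leaving out supplemented 1 ended that of Ifit1 (0.0622). Both genes overlapped between the Irf9 sets. That was fixed in advance, since their vehicle libraries all lay above their supplemented ones and each set holds both kinds. The overlap therefore shows nothing about the split. Of the 28 genes named as label markers or for their gap, 0 passed for 24:5, with edgeR adjusted p between 0.853 and 0.9998. None of the 161 higher genes (smallest edgeR adjusted p 0.822) and none of the 195 lower genes (0.459) passed either, while DESeq2 called 6 of the lower genes and edgeR without vehicle 3 called 13 of them. Genes chosen by the split vary within each injection group by that choice, which widens the spread this test uses. Their failure to pass therefore shows nothing about 24:5. Il33 had a log2 fold change of 0.52 for 24:5 (edgeR adjusted p = 0.997) and Nr2e3 of 0.15 (0.997).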

How the data were processed

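RNA-seq libraries of whole mouse retina were analysed from 2 deposited tables. For the 6 injected retinas the authors deposited raw read counts per gene, and for the 10 uninjected retinas FPKM values with gene lengths. The build mm10 and the tools HISAT2 2.2.1, featureCounts 2.0.6 and DESeq2 1.42.0 are named per the submitters' processing notes, without saying which did what. Annotation release and strand setting: not given in the sources used here. Overlapping and antisense genes may therefore share counts. Per the labels' protocols, RNA was poly(A)-selected and libraries were directional. Structural RNAs such as Rn7sk nonetheless took 8.69% to 13.7% of the injected counts, and the reason was not tested. The deposited gene length, a value of its own unit, was used to express counts as CPM per kb.

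Of 48440 gene identifiers, 48058 (99.2%) had a symbol. Counts were scaled with TMM in edgeR 4.0.16 (R 4.3.3, limma 3.58.1) and genes filtered with filterByExpr, which left 17466. The Irf9 split used counts without TMM. A gene counts as above or below when the sets do not overlap, and as higher or lower when the log2 difference with a pseudocount of 0.5 CPM is also at least 1. The 24:5 comparison used edgeR's quasi-likelihood test, robust, with p-values adjusted after Benjamini and Hochberg (threshold 0.05), checked on simulated data. DESeq2 1.42.0 was an alternative. Nothing in the labels makes each library its own animal, and p-values then reflect only the spread among these samples, possibly technical.

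The members and lists were chosen with earlier results of these data known. Named genes were the 6 label markers, the 12 with the widest gap in each direction (mean of at least 5 CPM, named symbols), up to 4 per list with the largest difference, and the genes called for 24:5. Other list members are named as examples, chosen after their values were seen, and so are the promoters printed. Promoters were looked up for 22 genes with entries on chromosome 18, where Tubb6 lies, left out, and 18 genes had an entry. Alternatives were no TMM, DESeq2 size factors, no filter, a pseudocount of 2, totals without structural RNA and lens genes, each library left out and a replicate block. A further gene that the rule selects is not reported here.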

Additional observations from a re-analysis of the deposited data

Results flagged for a closer look

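Within the 4 uninjected wildtype retinas of 18 months, 29 genes were checked for a library far from the others, and chance marks about 1 in 20 such groups. Sprr1a was at 0.155 FPKM in replicate 3 and listed at 0 in the others. Prss23 was at 1.80 FPKM in replicate 1 and at 1.03 to 1.12 FPKM in the others. Crybb2 was at 0.0338 FPKM and Cryaa at 0.0266 FPKM in replicate 1, both listed at 0 in the others.

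Among 182 genes selected by rule or named in the text, 13 had all comparisons within vehicle pointing one way and all within 24:5 the other. No share over all measured genes stands beside this count, so it is no result about these genes. The 13 are listed as description, some with differences near 0, and the difference between the groups was not tested. Ltbp2 differed by -3.76 within vehicle and 0.75 within 24:5, a gap of -4.50. Lcn2 differed by -0.43 and 2.16, a gap of -2.60. Gal, the neuropeptide galanin, differed by -0.85 and 0.77, a gap of -1.61. C1ra, a complement protease, differed by -1.11 and 0.24, a gap of -1.35. Icam1, an endothelial adhesion molecule, differed by -0.67 and 0.53, a gap of -1.20. The antiviral gene Rsad2 differed by 0.35 and -0.65, a gap of 1.0004, and Isg15 by -0.24 and 0.32, a gap of -0.56. The gaps of the other 6 were smaller, at -0.57 for Stat5a, 0.19 for Stat5b, -0.42 for Ifnar2, -0.14 for Socs6, 0.38 for Chat and -0.29 for the Y-linked demethylase Kdm5d.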

How the results depend on the processing

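With no TMM, DESeq2 size factors, no filter or totals without structural RNA and lens genes, the counts of genes across the split ranged from 146 to 164 higher and from 191 to 239 lower. A pseudocount of 2 gave 105 higher and 67 lower. Leaving out 1 library at a time gave 102 to 212 higher and 160 to 417 lower genes. Over 137 named genes, 14 of 685 differences under other settings moved, all with a pseudocount of 2. The differences of Ddx3y (0.01) and Eif2s3y (0.0066) changed sign, to -0.0369 and -0.0401, with totals without structural RNA and lens genes.

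For 24:5 against vehicle, DESeq2 called 246 genes (243 lower) and edgeR with no filter 85 (84 lower), against 2; the cause was not tested. Of the 246, 0 were among the higher and 6 among the lower genes of the split. Leaving out 1 library at a time gave 0 to 90 calls, 90 without vehicle 3. The log2 fold change of Atf3 for 24:5 was -0.0165 with no TMM, and with 1 library left out it ranged from -0.25 to 0.74, that of Sprr1a from -0.44 to 2.74, of Cish from -0.11 to 1.55, of Egr2 from -1.95 to 0.58 and of Nr2e3 from -0.24 to 0.37. Same-numbered vehicle and supplemented libraries had deviations correlated at 0.446, -0.256 and 0.490, and since 1 pair was below 0.1 the main fit did not pair them. Among all vehicle and supplemented pairs, those sharing an Irf9 set were positive (0.326 to 0.490). Those from different sets were negative (-0.588 to -0.206). The sign thus goes with the split, and the correlations cannot tell which retinas were fellow eyes. Whether same-numbered retinas were fellow eyes is not known. A replicate block gave 88 calls (87 lower). Having 3 libraries in each set limits what can be read from an absence of overlap.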

Other observations

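Further lists were drawn up after the values had been seen, and they are given as description. Both inducible metallothioneins, which bind zinc and copper, were higher in the high-Irf9 libraries. Mt1 had 225, 244 and 96.0 CPM in vehicle 1, vehicle 2 and supplemented 1 against 526, 609.5 and 462 CPM in vehicle 3, supplemented 2 and supplemented 3, and Mt2 differed by 1.74. Mt3, the form of neural tissue, lay below by -0.35. Of 23 targets of the antioxidant factor NRF2, 8 lay above and 4 below, against 16.2% and 14.1% of all genes. Hmox1, haem oxygenase, had 16.9, 15.8 and 4.41 CPM against 22.3, 26.1 and 44.1 CPM, while Nqo1 lay below with 5.54, 5.94 and 5.37 CPM against 3.59, 2.16 and 3.73 CPM.

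Of 18 genes of TGF-beta signalling, 7 lay above and 0 below. For this and the following lists, the shares over all genes were 16.2% above and 14.1% below. Pmepa1, a feedback inhibitor of the pathway, had 35.2, 35.4 and 28.6 CPM against 96.8, 84.1 and 94.8 CPM, and Smad3, its transcription factor, 35.2, 42.4 and 32.3 CPM against 91.8, 84.2 and 100.3 CPM. Ltbp2, a binding protein of the matrix, overlapped and was high only in vehicle 1 and vehicle 2, with 29.4 and 15.3 CPM against 0.91 to 2.13 CPM in the other 4 libraries. Of 23 actin cross-linkers and stress fibre genes 10 lay above and 2 below, and of 16 targets of YAP and TAZ 6 lay above and 1 below. Among 13 growth factor ligands 2 lay above and 3 below. Of 19 genes of polyunsaturated fatty acid synthesis, to which the injected 24:5 belongs, 4 lay above and 5 below with a median of 0.02. Elovl1 lay above by 0.82, and the desaturases Fads2 and Fads1 lay below by -0.41 and -0.28.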
